A study of Homo sapiens with 12 samples.

Results

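The genes described here were 10 components of the human centromere and kinetochore, CENPA, HJURP, CENPU, KNL1, ZWINT, DSN1, NDC80, NUF2, SPC25 and CENPF, out of 20595 genes in the deposited count table. They are a list of named genes chosen with earlier results of these data known, so that counts over them describe the list only, and their rows were found through the Ensembl identifiers of these symbols. All 10 had a row in the table. RNA was sequenced from A549 and H1792, human lung adenocarcinoma (LUAD) lines with MDM2 amplification, of which A549 is p53 WT and H1792 p53 mutant by the design text of the series. Both lines were kept for 48 h either in DMSO, the solvent, or in RG7112 at 1 μM, a nutlin-family compound that occupies the p53-binding pocket of MDM2. There were 3 replicates in each of the 4 groups, A549 DMSO, A549 RG7112, H1792 DMSO and H1792 RG7112. The sample labels give 1 μM, whereas the column names of the table carry 0.1 μM. Each p53 status was represented by a single cell line, so p53 status cannot be told apart from anything else that differed between A549 and H1792. Nothing in the labels says that replicates came from separate cultures, and the p-values therefore measure the spread between these samples, which may be technical.

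Centromeres are marked by nucleosomes that hold CENP-A, a histone H3 variant which the chaperone HJURP deposits. On this chromatin sits the constitutive centromere-associated network, which includes CENP-U, and on that network the KMN network of KNL1 (with its partner ZWINT), the MIS12 complex (with DSN1) and the NDC80 complex (NDC80, NUF2, SPC24 and SPC25), which binds spindle microtubules. CENP-F belongs to the fibrous corona outside it. Dividing cells make most of these mRNAs in G2 and mitosis. Many of the promoters carry cell cycle genes homology region (CHR) elements, through which the DREAM complex keeps these mRNAs low in resting cells. Many of the promoters also carry CCAAT elements. In tumors the levels of these mRNAs usually follow the share of dividing cells.

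The 12 libraries held between 2011916 and 6218825 counts, and 3 counts, the upper limit that a count of 0 allows, corresponded to 0.465 to 1.43 CPM (counts relative to library size, the field's usual unit, scaled by the TMM method over all 12 libraries). Such floors, and the counting intervals below, cover counting error only. In A549 the second principal component (25.6% of the variance) set replicate 3 of both treatments at -51.8 and -43.7, apart from the other 4 libraries between 9.43 and 45.3, so that counts of called genes are also given without replicate 3. CDKN1A, which encodes p21, and MDM2, both direct p53 targets, rose in A549 with RG7112 (log2 fold changes 3.58 and 2.99, edgeR adjusted p = 0.0252 and 0.0102). CDKN1A varied widely between the treated A549 libraries, at 445 ± 431 CPM against 37.2 ± 11.4 CPM with DMSO (SD, n = 3). MDM2 was at 69.2 ± 9.27 against 8.54 ± 4.99 CPM. Neither CDKN1A nor MDM2 was called in H1792 (log2 fold changes 0.15 and -0.05, edgeR adjusted p = 0.882 and 0.928). The epithelial markers EPCAM, KRT8, KRT18 and KRT19 summed to 13960 to 23151 CPM in the A549 libraries and to 889 to 1762 CPM in the H1792 libraries. Nearly all of these sums was keratin. Mean EPCAM was only 0.670 CPM with DMSO and 0.624 CPM with RG7112 in A549, and 2.27 and 5.04 CPM in H1792. Of the markers of other cell types, CD3E had no count in any library, PTPRC 1 count in all, and PECAM1 and CDH5 at most 11 counts in a library, with their sum between 0 and 1.70 CPM. Fold changes across all tested genes followed GC content of the gene in H1792 (Spearman's rho across 9165 genes -0.481) and less so in A549 (rho 0.25 across 9941 genes). The GC content of the 10 genes was 38.1% to 49.1%, against a median of 48.4% over the genes tested in H1792.

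Promoter sequence was read for 9 of the 10 genes, the other being KNL1, from RefSeq on GRCh38.p14 (250 bases before the annotated start and 50 after it). The search covered both strands for the CHR (TTTGAA or TTCGAA), for E2F-type sites (the motif TTTGGCG, besides its variant TTTCCCG, the variant TTTGCCG and finally TTTCGCG) and for the CCAAT box (CCAAT). Within the 250 bases before the start, a CHR was found in CENPA, HJURP, SPC25 and ZWINT, 4 of 9 genes, against 14.4% of 34941 promoter windows of the same length. A CCAAT box was found there in 6 of 9 genes (CENPA, CENPF, CENPU, HJURP, SPC25 and ZWINT) against 32% of windows, and an E2F-type site in 2 of 9 (CENPA and CENPU) against 7.29%. Over the whole 300 bases, a window added after the matches were seen, 7 of 9 genes held a CHR, against 16.4% of windows. DSN1 had no match of any of the 3 kinds in its window. A match is a stretch of letters and not a binding site shown by these data. Whether the CHR had a part in the fall of most of the genes in A549 (described below) was not tested. The stretches of 30 bases around CHR matches are printed next. They run 5′ to 3′ along the gene's own strand, with the CHR in capitals (TTCAAA is TTTGAA read on the other strand).
CENPA, chr2:26786026-26786055, plus strand: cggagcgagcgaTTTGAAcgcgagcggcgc
HJURP, chr2:233854629-233854658, minus strand: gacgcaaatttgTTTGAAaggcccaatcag
ZWINT, chr10:56361273-56361302, minus strand: gtcgactgtgacTTCAAAgtaatcttaggg
NDC80, chr18:2571548-2571577, plus strand: gagaatttcaaaTTCGAAcggctttggcgg
NUF2, chr1:163321958-163321987, plus strand: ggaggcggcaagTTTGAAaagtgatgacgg
SPC25, chr2:168890416-168890445, minus strand: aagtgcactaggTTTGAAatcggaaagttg
CENPF, chr1:214603215-214603244, plus strand: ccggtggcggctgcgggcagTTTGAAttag

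The CHR of CENPA began 18 bases before the RefSeq start, that of ZWINT 31 and that of HJURP 111 bases before it. In HJURP the CHR lay between CCAAT boxes, and a CCAAT box on the plus strand of the gene began 10 bases downstream of the first base of the CHR. The matches of NDC80, NUF2 and CENPF began 4, 17 and 41 bases after the start, in transcribed sequence, and the SPC25 match shown spanned the start, with a second match 247 bases before it. NDC80 held a further match across its start, and positions for ZWINT are from the first of its 2 annotated starts. The GENCODE intervals given below for CENPA, NUF2 and SPC25 begin far upstream of these RefSeq starts, at 26764289, 163266576 and 168913371. Sequence before those GENCODE starts was not searched. Only the CENPA window held all 3 kinds of match before the start, so it is given whole. It is chr2:26785806-26786055 on the plus strand of GRCh38.p14, ending at the base before the RefSeq start, with the E2F-type site, the CCAAT boxes (ATTGG, on the other strand) and the CHR in capitals.
CENPA promoter: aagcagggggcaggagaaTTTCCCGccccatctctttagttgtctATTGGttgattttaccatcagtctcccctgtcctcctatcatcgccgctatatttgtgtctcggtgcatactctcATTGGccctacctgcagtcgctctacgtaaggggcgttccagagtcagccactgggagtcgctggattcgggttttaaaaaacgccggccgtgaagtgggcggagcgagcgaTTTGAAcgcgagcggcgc

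**Figure D1:**
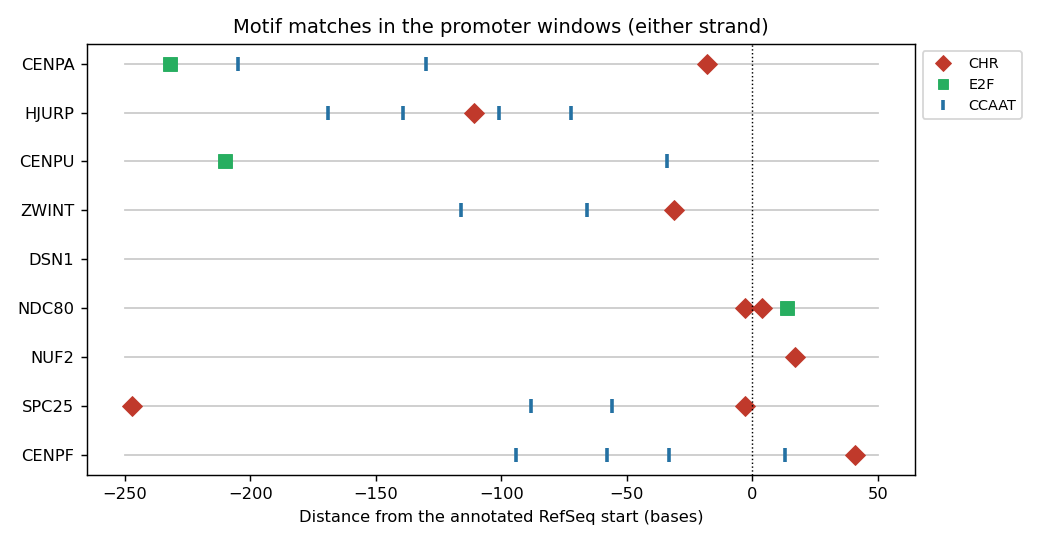
Motif matches in the promoter windows of 9 genes, with the distance in bases from the annotated RefSeq start on the x axis and 1 gene per row. CHR matches (diamonds) lie before the start in CENPA, HJURP, ZWINT and SPC25 and at or after it in NDC80, NUF2 and CENPF, and DSN1 has no match.

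In A549, RG7112 lowered the mRNA of most centromere and kinetochore genes that could be tested. Of the 9 tested genes, 6 were called lower (CENPA, HJURP, CENPU, ZWINT, NUF2 and CENPF) and none higher, where a call required both an edgeR adjusted p below 0.05 and a log2 fold change above 1 in size. Over all 10739 genes tested in A549, 3.01% were called lower and 3.18% higher. The median log2 fold change of the 9 genes was -3.43, against -0.015 over all tested genes. In each of the 9 genes every RG7112 library lay below every DMSO library, which was the case for 16.3% of all tested genes. The edgeR p-value before adjustment was under 0.05 for 9 of 9, against 23.9% of all tested genes. With no fold threshold the same count of 6 of 9 was called lower and 0 higher, against 4.03% and 4.35% of all tested genes. In bulk RNA, fewer cells that make an mRNA and less of it per cell cannot be told apart.

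CENPA (ENSG00000115163, chromosome 2, 26764289 to 26801067, plus strand of GRCh38) encodes the histone variant itself. It had 29.4, 31.2 and 32.1 CPM in A549 DMSO replicates 1 to 3 and 3.10, 0.953 and 2.99 CPM with RG7112. The DMSO libraries were close to each other, and replicate 2 was the lowest of the treated libraries, at 2 counts. RG7112 changed CENPA by -3.60 on the log2 scale (standard error 0.38, edgeR adjusted p = 0.00240). Exons of CENPA overlap those of SLC35F6 on the same strand, so some reads may be shared between them. HJURP (ENSG00000123485, chromosome 2, 233833416 to 233854566, minus strand) encodes the chaperone of CENP-A. Its level was 119, 96.3 and 46.8 CPM with DMSO and 13.6, 19.1 and 5.98 CPM with RG7112. Replicate 3 was the lowest library under both treatments. HJURP changed by -2.78 on the log2 scale (standard error 0.50, edgeR adjusted p = 0.0182).

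CENPU (ENSG00000151725, chromosome 4, 184694618 to 184734133, minus strand), of the constitutive network, had few reads in either treatment. Its level was 4.998, 3.58 and 3.24 CPM with DMSO (16, 21 and 13 counts) and 0.155, 0 and 0.272 CPM with RG7112 (1, 0 and 1 counts). All treated libraries were at or under 1 count. Exons of PRIMPOL overlap those of CENPU on the opposite strand. From the summed counts of 50 and 2, the level with DMSO was 23.4 times that with RG7112, with a 95% exact counting interval of 6.14 to 198. The fitted log2 fold change was -4.36 (standard error 0.68, edgeR adjusted p = 0.0107) and rests on a prior count at this depth.

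Of the KNL1 part of the KMN network, ZWINT had the most reads. ZWINT (ENSG00000122952, chromosome 10, 56357228 to 56361275, minus strand) links KNL1 to checkpoint proteins of the corona. Its level was 168, 175 and 167 CPM with DMSO and 16.1, 16.7 and 14.7 CPM with RG7112. Both sets of libraries were tight and far apart, and the log2 fold change was -3.43 (standard error 0.15, edgeR adjusted p = 0.000283). KNL1 (ENSG00000137812, chromosome 15, 40594020 to 40664342, plus strand), the scaffold to which checkpoint kinases bind, had 3.44, 3.41 and 3.99 CPM with DMSO and 0.310, 0 and 1.36 CPM with RG7112. The groups did not overlap, but the treated libraries held only 2, 0 and 5 counts. The log2 fold change of -2.57 (standard error 0.78) was not called (edgeR adjusted p = 0.0924).

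DSN1 (ENSG00000149636, chromosome 20, 36751791 to 36773818, minus strand) is a subunit of the MIS12 complex, which joins the inner to the outer kinetochore. It was counted at 20.9, 29.9 and 30.4 CPM with DMSO and at 3.41, 13.3 and 9.24 CPM with RG7112. The groups did not overlap, and the treated libraries differed among themselves more than those of ZWINT or CENPA did. The log2 fold change of -1.70 (standard error 0.48) was the smallest of the 9 and was not called (edgeR adjusted p = 0.0784).

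Of the NDC80 complex, NUF2 had next to no counts after treatment. NUF2 (ENSG00000143228, chromosome 1, 163266576 to 163355764, plus strand) pairs with NDC80 in the microtubule-binding arm. It had 32, 42 and 30 counts with DMSO (10.0, 7.17 and 7.47 CPM) and 1, 0 and 0 counts with RG7112. Nearly all of its signal was thus absent from the treated libraries, and the ratio of the summed levels was 97.3 with a 95% exact counting interval of 17.1 to 3879. The fitted log2 fold change was -6.25 (standard error 0.69, edgeR adjusted p = 0.00298). NDC80 (ENSG00000080986, chromosome 18, 2571511 to 2616635, plus strand) had 9.37, 6.14 and 4.23 CPM with DMSO and 0.930, 2.38 and 0.815 CPM with RG7112. The lowest DMSO library stood above the highest treated one, and the log2 fold change of -2.36 (standard error 0.57) missed the threshold (edgeR adjusted p = 0.0505). SPC25 (ENSG00000152253, chromosome 2, 168834132 to 168913371, minus strand), of the arm that anchors the complex, is listed at 0 in 11 of the 12 libraries and at 1 count in H1792 RG7112 replicate 2. Whether this reflects the mRNA or the adding up of transcript estimates to genes was not tested, and the same holds for other genes listed at 0. SPC25 was not tested in any comparison, although its partner SPC24 had 42.9 ± 11.01 CPM in A549 DMSO (SD, n = 3).

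CENPF (ENSG00000117724, chromosome 1, 214603195 to 214664588, plus strand), the corona protein, has the longest transcript of the 10 genes. It had 7.18, 7.17 and 10.2 CPM with DMSO and 0.310, 1.43 and 0.543 CPM with RG7112, the latter from 2, 3 and 2 counts. Every treated library was at or under 3 counts, and the summed level with DMSO was 14.2 times that with RG7112 (95% exact counting interval 6.64 to 36.1). CENPF changed by -3.62 on the log2 scale (standard error 0.59, edgeR adjusted p = 0.0124).

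**Figure D2:**
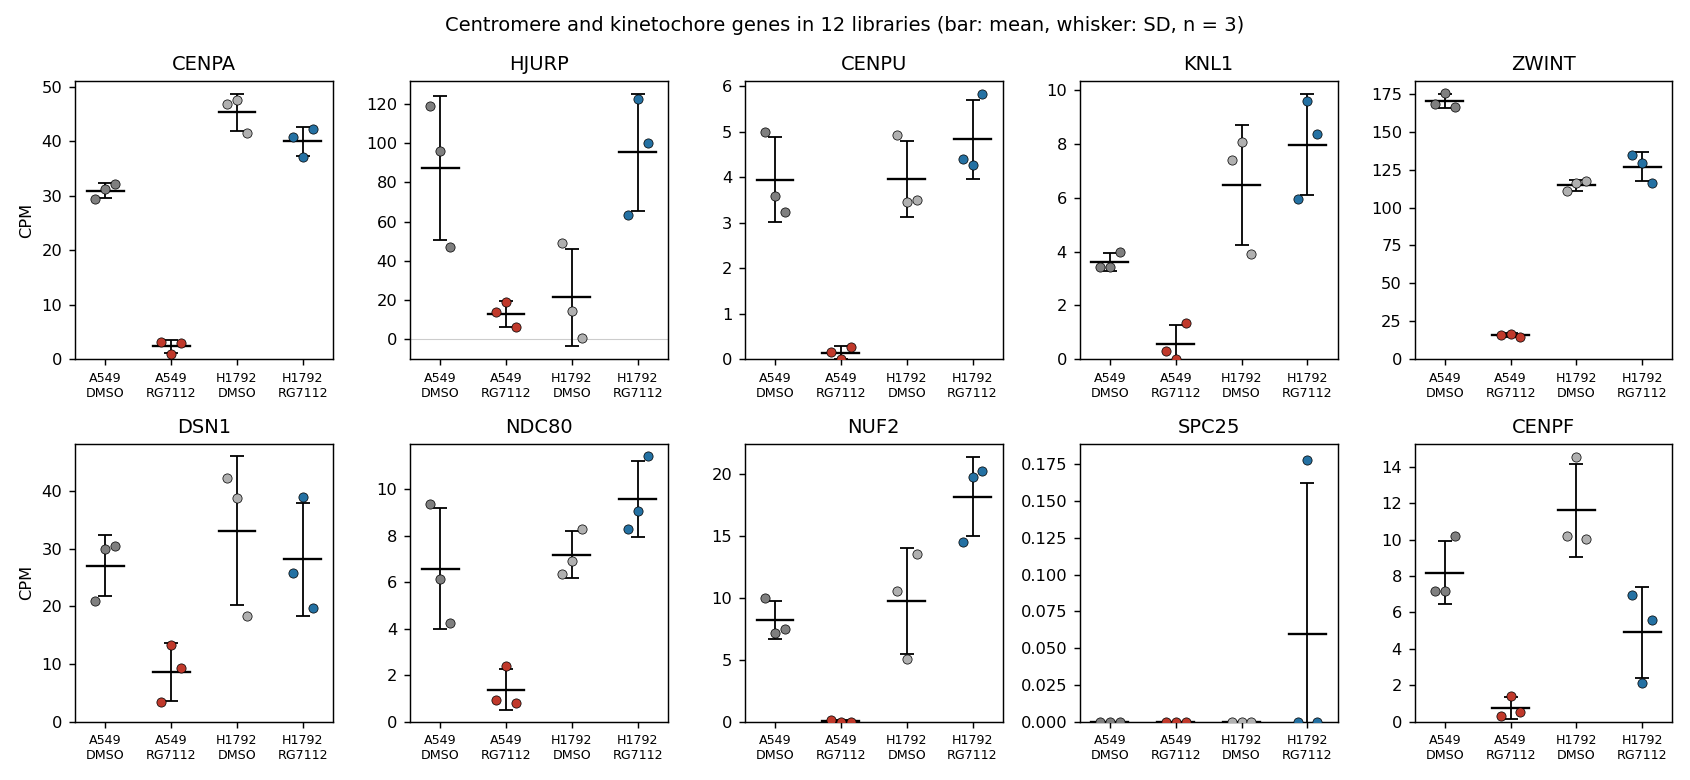
CPM (y axis, own scale per gene) of the 10 genes in each of the 12 libraries, by cell line and treatment (x axis). Points are libraries, horizontal bars group means and whiskers SD (n = 3). The A549 RG7112 points lie below all A549 DMSO points in every gene but SPC25, which has 1 count in 1 library.

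CENPA, ZWINT and NUF2 were called lower in A549 under every alternative of test, scaling, filter or samples. CENPF was not called without replicate 3 of both treatments (edgeR adjusted p = 0.0587, with 5 of the 9 genes then called), without A549 DMSO replicate 2 (0.0534) or without A549 RG7112 replicate 1 (0.0530). HJURP and CENPU were each not called without A549 DMSO replicate 1 (edgeR adjusted p = 0.0671 and 0.0578), A549 DMSO replicate 2 (0.0717 and 0.0631) or A549 RG7112 replicate 1 (0.0751 and 0.0698), and 3 of 9 genes were then called without DMSO replicate 2 or RG7112 replicate 1. DESeq2 called 8 of the 9 genes, adding NDC80 and DSN1, and the fit of all 12 samples also called 8, adding NDC80, KNL1 and DSN1 and losing HJURP (edgeR adjusted p = 0.0561).

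In H1792, none of the 9 tested genes was called lower or higher by edgeR, and none was called by DESeq2 or limma-trend. Over the 9914 genes tested there, 4.34% were called lower and 10.3% higher. The edgeR p-value before adjustment was under 0.05 for 4 of the 9 genes (CENPF, HJURP, NUF2 and ZWINT), against 46% of all tested genes. With no fold threshold 0 of 9 were called by edgeR in either direction, against 16.5% of all tested genes lower and 17.7% higher. The median log2 fold change was 0.36 and the values ranged from -1.19 to 2.23. HJURP and NUF2 lay higher with RG7112 without overlap of the libraries, and CENPF lower without overlap. Of all tested genes, 24.9% lay higher and 28.4% lower without overlap.

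HJURP was the most variable of the 9 genes in H1792. With DMSO it had 49.0, 14.3 and 0.436 CPM, the last from a single count, and with RG7112 63.3, 123 and 100.1 CPM. DMSO replicate 3 stood far below its own group in this gene. It also had the lowest CPM of its group for CENPA, KNL1, DSN1 and CENPF, and the highest for NUF2, NDC80 and ZWINT. The log2 fold change of HJURP was 2.23 (standard error 0.91, edgeR adjusted p = 0.102). Without DMSO replicate 3 it was 1.69 and not called, and without DMSO replicate 1 it was 3.60 and called (edgeR adjusted p = 0.0289). MROH2A overlaps exons of HJURP on the opposite strand, and with no strand setting given for the counting, reads of such pairs cannot be told apart.

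NUF2 had 10.6, 5.08 and 13.5 CPM with DMSO and 14.5, 19.7 and 20.3 CPM with RG7112 in H1792. The treated libraries were the higher ones, with the nearest libraries of the groups close together. The log2 fold change was 1.00 (standard error 0.39, edgeR adjusted p = 0.0922), and with libraries scaled by size only, which moved the median of all genes in H1792 to 0.27, it was 1.26 and called (edgeR adjusted p = 0.0495). CENPF had 10.2, 14.5 and 10.0 CPM with DMSO and 6.97, 2.13 and 5.59 CPM with RG7112. It was the only one of the 9 genes with every treated library of H1792 below every DMSO library, and its log2 fold change was -1.19 (standard error 0.45, edgeR adjusted p = 0.0862). With a correction for GC content, CENPF changed by -1.65 and was called (edgeR adjusted p = 0.0452).

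ZWINT stayed between 111 and 117 CPM with DMSO and between 116 and 135 CPM with RG7112 in H1792, and the groups overlapped. Its log2 fold change of 0.22 (standard error 0.086, edgeR adjusted p = 0.0888) was small with a narrow error. CENPA lay between 41.4 and 47.5 CPM with DMSO and between 37.0 and 42.1 CPM with RG7112. The log2 fold change of CENPA was -0.11 (standard error 0.13, edgeR adjusted p = 0.556) and turned to 0.15 when libraries were scaled by their size only. CENPU had 4.93, 3.46 and 3.49 CPM with DMSO in H1792, and 4.39, 4.27 and 5.82 CPM with RG7112. KNL1 had 7.40, 8.08 and 3.92 CPM with DMSO in H1792, and 5.94, 9.61 and 8.38 CPM with RG7112. In both genes the libraries of the treatments were interleaved. NDC80 had 6.34, 6.92 and 8.28 CPM with DMSO in H1792, and 8.27, 9.07 and 11.4 CPM with RG7112, so that only the nearest libraries overlapped. DSN1 had 42.3, 38.8 and 18.3 CPM with DMSO in H1792, and 25.8, 38.96 and 19.8 CPM with RG7112, and its replicate 3 was the lowest under both treatments. All 4 genes overlapped between treatments, with log2 fold changes of 0.36 for CENPU (standard error 0.34), 0.37 for KNL1 (0.36), 0.49 for NDC80 (0.27) and -0.16 for DSN1 (0.37), at edgeR adjusted p between 0.199 and 0.768. With the GC correction the values of CENPU, KNL1 and NDC80 turned negative (-0.20, -0.21 and -0.015). The absence of a call does not show that these genes did not change in H1792.

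**Figure D3:**
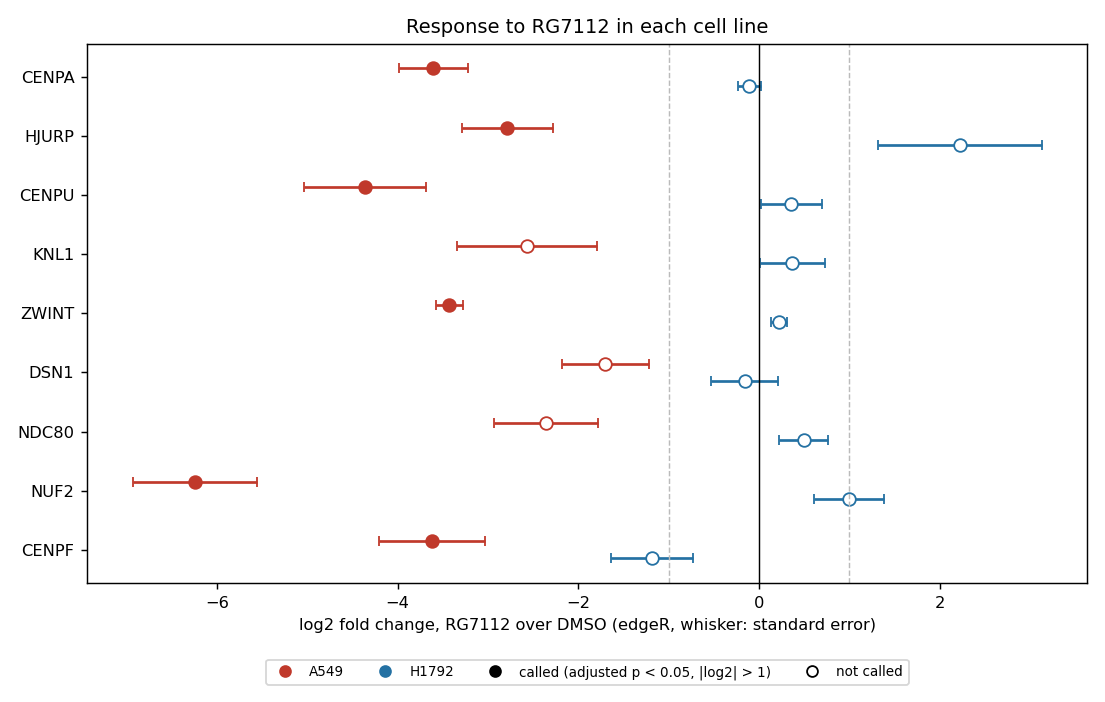
Log2 fold change of RG7112 over DMSO (x axis) for the 9 tested genes (y axis) in A549 (red) and H1792 (blue), with edgeR standard errors as whiskers, filled points for called genes and dashed lines at the fold threshold. All 9 A549 points lie between -6.25 and -1.70, and the H1792 points lie between -1.19 and 2.23 with none filled.

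The question whether the lines responded differently was tested directly in a fit of all 12 samples, with the H1792 response subtracted from the A549 response on the log2 scale. The difference was negative in all 9 genes and called in 8 (edgeR adjusted p under 0.05 with no fold threshold), against 11.4% of all 11666 tested genes called lower and 10.4% called higher. Before adjustment, the edgeR p-value was under 0.05 for 9 of 9 genes, against 36.2% of all tested genes. The median difference was -3.41 over the 9 genes and 0.020 over all tested genes. The fitted difference of NUF2 was -7.14 (standard error 0.78, edgeR adjusted p = 0.000243), but it rests on 1 summed count in A549 RG7112 and on a prior count. It was -8.92 without A549 RG7112 replicate 1, which holds that count, and -4.95 in limma-trend, and was called in both. HJURP, which lay lower with RG7112 in A549 and higher in H1792, differed by -4.95 (standard error 1.19, edgeR adjusted p = 0.0158). CENPU differed by -4.64 (standard error 0.70, edgeR adjusted p = 0.00169) and CENPA by -3.41 (standard error 0.36, edgeR adjusted p = 0.000186).

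The difference with the narrowest error was that of ZWINT, -3.57 (standard error 0.15, edgeR adjusted p = 3.65e-07). NDC80 and KNL1, which were not called in A549 alone, differed between the lines by -2.78 and -2.85 (standard errors 0.61 and 0.84, edgeR adjusted p = 0.0103 and 0.0339). CENPF differed by -2.37 (standard error 0.76, edgeR adjusted p = 0.0469). DSN1, at -1.48 (standard error 0.65), was not called (edgeR adjusted p = 0.128). The calls of CENPA, HJURP, CENPU, ZWINT and NUF2 held under every alternative. NDC80 lost its call only with the replicate block and GC correction together (-2.07, edgeR adjusted p = 0.0639). The call of CENPF was lost without any 1 of 10 of the 12 libraries (edgeR adjusted p 0.0649 to 0.112), the exceptions being replicate 2 of A549 RG7112 and of H1792 RG7112, and also without replicate 3 throughout (0.285), with no filter on low counts (0.0534) and in limma-trend (limma adjusted p = 0.0888). The call of KNL1 was lost without A549 DMSO replicate 1 or 2, A549 RG7112 replicate 1, any H1792 DMSO library or H1792 RG7112 replicate 2 or 3 (edgeR adjusted p 0.0523 to 0.0779). With the GC correction, which lowers the number of genes called over the whole table from 2539 to 1829, 6 were called, without KNL1 and CENPF.

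In untreated cells, the 2 lines were compared as A549 DMSO minus H1792 DMSO. None of the 9 genes was called lower or higher by edgeR, whereas 14.5% of the 11666 tested genes were called lower in A549 and 20.4% higher. The edgeR p-value before adjustment was under 0.05 for 3 of the 9 (CENPA, HJURP and ZWINT), against 54.4% of all tested genes, and DESeq2 and limma-trend each called 1 of the 9, HJURP, higher in A549. ZWINT was higher in A549 (170 ± 4.67 against 115 ± 3.50 CPM, SD, n = 3) by a log2 difference of 0.57 (standard error 0.099, edgeR adjusted p = 0.000704), under the fold threshold. HJURP was at 87.4 ± 36.9 CPM in A549 and at 21.2 ± 25.0 CPM in H1792 (SD, n = 3), with a log2 difference of 2.03 (standard error 0.83, edgeR adjusted p = 0.0633). It was called without A549 DMSO replicate 3 (2.32, edgeR adjusted p = 0.04998) and without H1792 DMSO replicate 1 (3.40, edgeR adjusted p = 0.00936). The remaining 7 genes had log2 differences between -0.85 for KNL1 and -0.014 for CENPU. Scaled by library size only, CENPU, NDC80 and NUF2 took the opposite sign.

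Summed over the 10 genes, A549 held 346 ± 35.9 CPM in DMSO (SD, n = 3) and 42.6 ± 9.81 CPM in RG7112. H1792 held 253 ± 35.8 CPM with DMSO and 336 ± 34.5 CPM with RG7112. The A549 RG7112 libraries, at 35.9 to 53.9 CPM, were thus apart from all 9 other libraries, which lay between 217 and 373 CPM. ZWINT (mean 170 CPM) and HJURP (87.4 CPM) made up most of the sum in A549 DMSO. Most of the rise of the sum in H1792 was that of HJURP, from a mean of 21.2 CPM with DMSO to 95.4 CPM with RG7112. Its H1792 DMSO replicate 3 held 1 count. Of the 9 log2 fold changes in H1792, 6 were above 0 and 3 below, and none was called.

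Levels of different genes were compared per kilobase of the longest annotated transcript, as descriptions with no test. In A549 DMSO the order of levels was ZWINT (86.8 ± 2.38 CPM per kb), HJURP (27.4 ± 11.6), CENPA (21.3 ± 0.973), DSN1 (11.1 ± 2.17), NUF2 (4.17 ± 0.788), NDC80 (3.03 ± 1.20), CENPU (1.97 ± 0.467), CENPF (0.794 ± 0.170), KNL1 (0.377 ± 0.0338) and SPC25, listed at 0 (SD, n = 3). The neighbours HJURP and CENPA, NUF2 and NDC80, and NDC80 and CENPU overlapped in their libraries, and the other neighbours did not. In H1792 DMSO, CENPA (31.2 ± 2.31 CPM per kb) and DSN1 (13.5 ± 5.29) stood above HJURP (6.66 ± 7.85), and DSN1, HJURP, NUF2 and NDC80 overlapped from each to the next.

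With RG7112, the order in A549 kept ZWINT (8.07 ± 0.530 CPM per kb) and HJURP (4.05 ± 2.06) at the top, and NUF2 moved from rank 5 to rank 9 (0.0262 ± 0.0454). Below NDC80 (0.634 ± 0.403), the genes CENPF, CENPU, KNL1 and NUF2 all lay between 0.0262 and 0.0738 CPM per kb and could not be ordered, since their libraries overlapped and held at most 5 counts. In H1792 RG7112 the order of the highest 7 genes was that of A549 DMSO, with NUF2 at 9.22 ± 1.63 CPM per kb. NUF2 and NDC80, whose proteins pair, were counted at similar levels per length in A549 DMSO (4.17 and 3.03) and further apart in H1792 RG7112 (9.22 and 4.41). With the summed length of all exons in place of the longest transcript, the ranks changed only in A549 RG7112, where CENPU and KNL1 exchanged places.

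**Figure D4:**
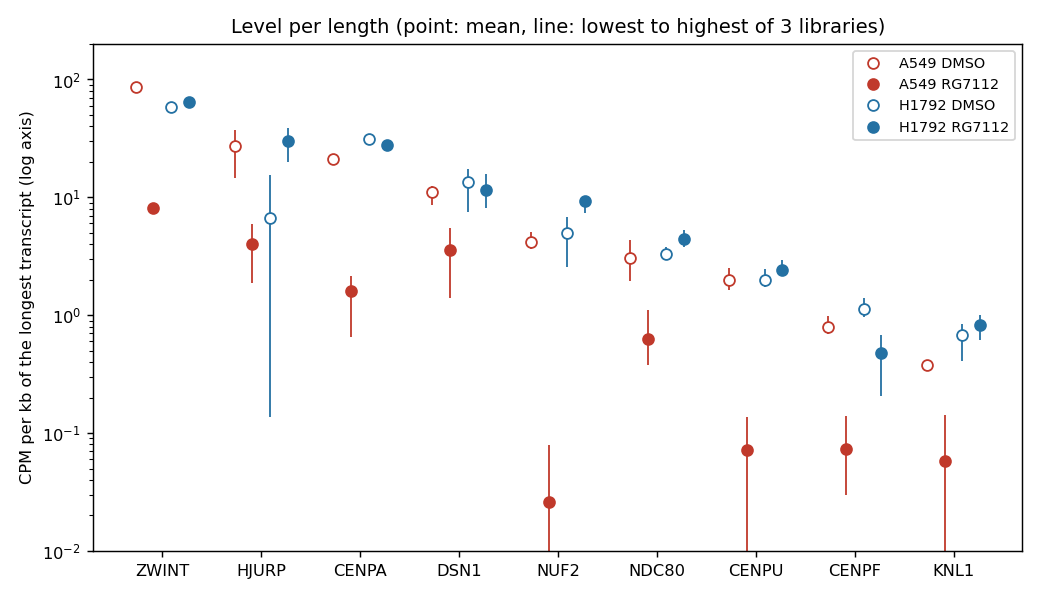
Level in CPM per kb of the longest transcript (y axis, log scale) of the 9 genes with counts in A549 (x axis, in the order of A549 DMSO), as group means (points) with a line from the lowest to the highest of 3 libraries. Lines that reach the lower edge include a library at 0. The A549 RG7112 points (filled red) are the lowest of the 4 groups in every gene.

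The other genes of the same structures were taken from lists by role, of which 29 genes beside the 10 had a row in the table. In A549, 9 of the 21 tested were called lower (CENPH, CENPK, CENPM, CENPN, CENPW, CENPX, SPC24, ZWILCH and KNTC1) and none higher, against 3.01% and 3.18% of all tested genes. The count of 9 fell to 4 without A549 DMSO replicate 1, to 3 without A549 DMSO replicate 2 and to 5 without A549 DMSO replicate 3. CENPN, CENPW and SPC24 were called under every alternative. All 21 log2 fold changes were negative, with a median of -1.58. In H1792, none of 25 tested was called lower and 2 were called higher, SPDL1 among them, against 4.34% and 10.3% of all tested genes. The median in H1792 was -0.0010.

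Of the deposition factors of CENP-A, MIS18A, also named after its values were seen, is listed at 0 in all 12 libraries. In the constitutive network, 6 of 12 tested genes beside CENPU were called lower in A549. Among these 6, CENPN, which reads CENP-A nucleosomes, had the smallest error and went from 49.6 ± 7.57 to 6.01 ± 0.806 CPM (SD, n = 3) with a log2 fold change of -3.06 (standard error 0.24, edgeR adjusted p = 0.000881). CENPH and CENPK, of one subcomplex, fell by 3.51 and 2.96 on the log2 scale (edgeR adjusted p = 0.0265 and 0.00997). CENPH was not called without A549 DMSO replicate 1 (edgeR adjusted p = 0.0863), 2 (0.0926) or 3 (0.0697), without A549 RG7112 replicate 3 (0.0768) or without replicate 3 of both treatments (0.0879), nor CENPK without A549 DMSO replicate 1 (0.0506) or 2 (0.0534). CENPM fell by 2.33, CENPW by 2.90 and CENPX by 1.58 on the log2 scale (edgeR adjusted p = 0.0221, 0.00660 and 0.0112). CENPM was called in none of the fits that left out a library (edgeR adjusted p 0.0604 to 0.0985) but that without A549 RG7112 replicate 2, and CENPX was not called without A549 DMSO replicate 2 (0.0532) or A549 RG7112 replicate 2 (0.0520). CENPT, the partner of CENPW at the DNA, was not called in A549 (log2 fold change -0.14, edgeR adjusted p = 0.663) and was at -0.63 in H1792 (edgeR adjusted p = 0.00316), under the fold threshold.

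In the KMN network, SPC24 changed in A549 by -4.23 (log2, standard error 0.38, edgeR adjusted p = 0.00147), from 42.9 ± 11.01 to 2.34 ± 0.990 CPM (SD, n = 3). In H1792 it was at -0.85 (standard error 0.12, edgeR adjusted p = 0.00470), under the fold threshold. Of the MIS12 complex, PMF1 was at -0.88 in A549 (standard error 0.20, edgeR adjusted p = 0.0421), under the fold threshold. MIS12 and NSL1, named after their values were seen, had log2 fold changes of -0.20 and -0.38 in A549, so that none of the 4 subunits with DSN1 was called. A contrast between the complexes was not tested. Of the outer kinetochore and corona, ZWILCH and KNTC1, both of the RZZ complex, had log2 fold changes of -2.04 and -1.32 in A549 and were called (edgeR adjusted p = 0.0296 and 0.0338). KNTC1 lost its call without any 1 of the 6 A549 libraries (edgeR adjusted p 0.0678 to 0.128), with no filter on low counts (0.0527) and with the GC correction (0.0576). ZWILCH lost its call without any 1 of them (0.0687 to 0.0921) but A549 RG7112 replicate 3. SPDL1, the adaptor for dynein that RZZ recruits, had a log2 fold change of -1.52 in A549 (edgeR adjusted p = 0.104) and rose by 1.40 in H1792 (standard error 0.43, edgeR adjusted p = 0.0442). The H1792 call of SPDL1 was lost with the GC correction (edgeR adjusted p = 0.193), with no filter on low counts (0.0525), without H1792 DMSO replicate 3 (0.0907) and without H1792 RG7112 replicate 1 (0.0921), 2 (0.123) or 3 (0.0872).

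**Figure D5:**
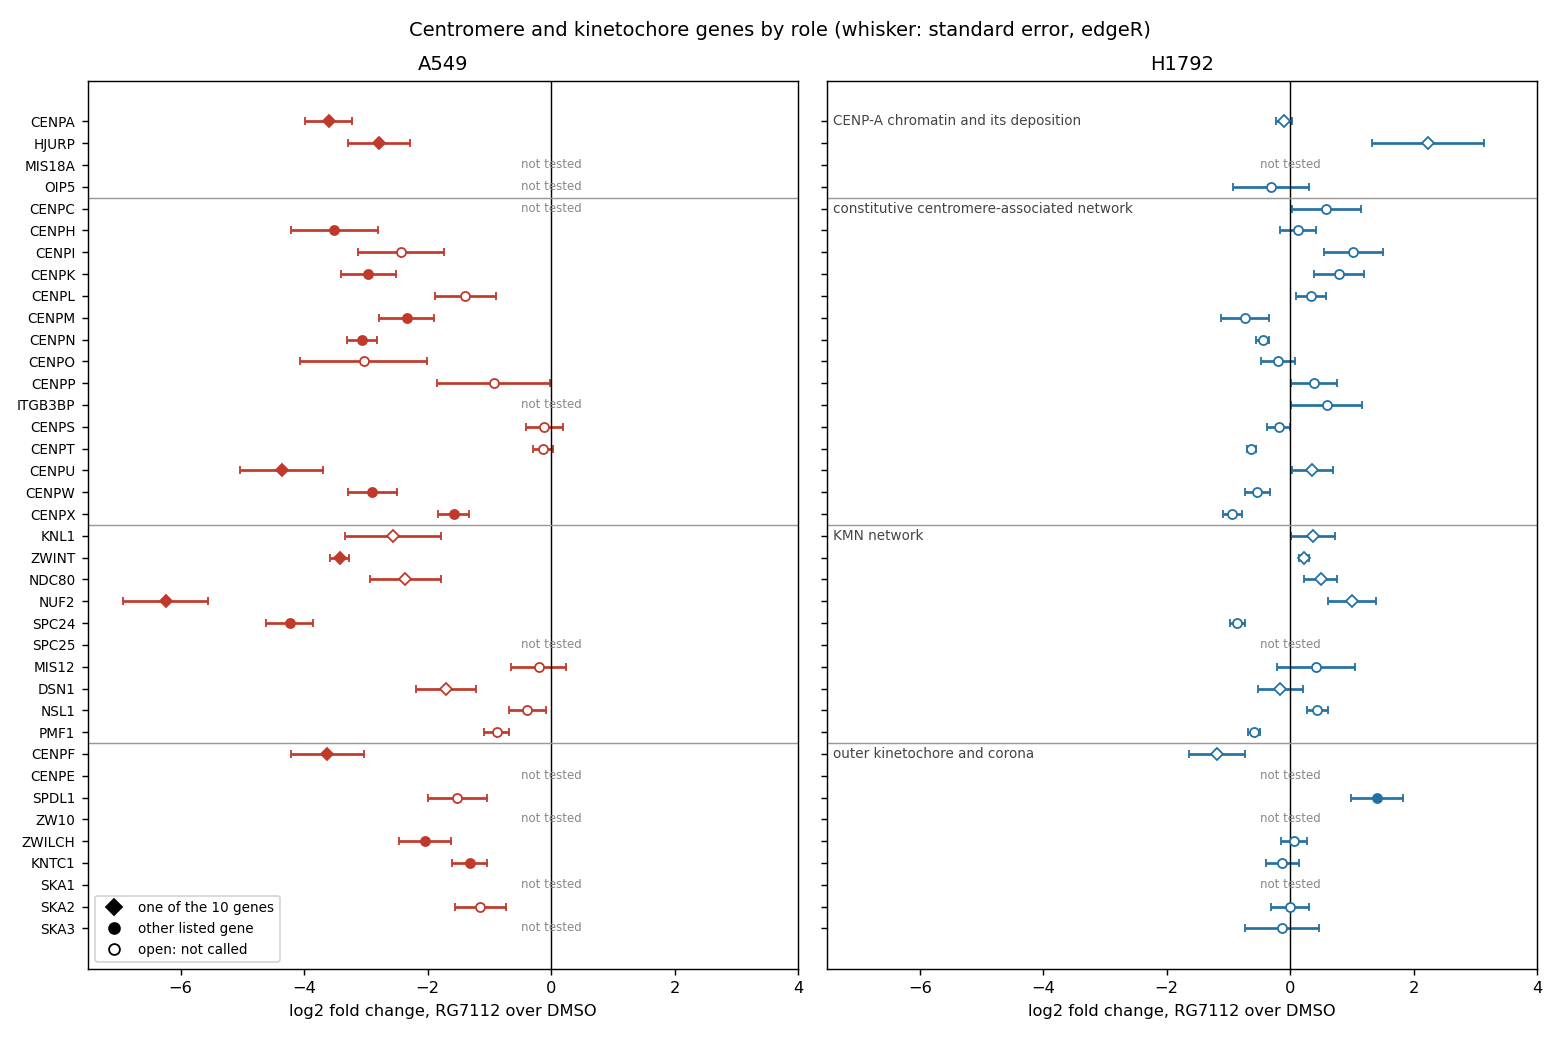
Log2 fold change of RG7112 over DMSO (x axis) with edgeR standard errors for the genes of 4 role lists (y axis), in A549 (left) and H1792 (right). Diamonds are the 10 genes, circles the others and filled symbols called genes. In A549 every tested gene lies below 0, and in H1792 the only filled symbol is SPDL1.

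The difference between the responses was called lower in A549 for 11 of the 25 other listed genes tested and higher for 1, CENPT (0.57, edgeR adjusted p = 0.0418), against the shares of 11.4% and 10.4% over all genes. In untreated cells, 3 of these 25 genes were called lower in A549 than in H1792, against 14.5% of all tested genes. They were CENPN, CENPW and SPC24, lower by 1.53, 1.53 and 1.16 on the log2 scale. Only 1 of the 25 was called higher, CENPK by 1.46, against 20.4% of all tested genes.

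The profile of the centromere and kinetochore genes over the 12 libraries, taken as the mean of their scaled log2 CPM, was lowest in the A549 RG7112 libraries (-1.58 to -1.32) and lay between 0.12 and 0.66 in the other 9. The genes outside the role lists with the most similar profile were BUB1B (Pearson's r over 12 libraries 0.989), CCNB1 (0.989), MELK (0.986), DTL (0.985) and FOXM1 (0.984). They share the libraries, and the coefficients rest largely on the 3 libraries of A549 RG7112 that stand apart. Their log2 fold changes in A549 were between -4.41 and -3.27. Of 8 other genes of dividing cells, MKI67, TOP2A, CCNB1, CDK1, AURKA and BUB1 were called lower in A549, with log2 fold changes between -5.76 and -2.46, and CCNB2 and PCNA were not called (-0.29 and -0.53). In H1792, 1 of the 8 was called higher, BUB1 (log2 fold change 1.12, edgeR adjusted p = 0.00404), and 0 lower, against 10.3% and 4.34% of all tested genes. CDK1 (0.84, edgeR adjusted p = 0.0385) and CCNB1 (0.29, edgeR adjusted p = 0.0410) lay higher under the fold threshold. Of the 8 log2 fold changes in H1792, 5 were above 0 and 3 below. The lowest was that of CCNB2 (-1.74, edgeR adjusted p = 0.0822), which was not called. Summed over these 8 genes, A549 had 1028 ± 111 CPM in DMSO against 99.5 ± 3.03 CPM in RG7112, and H1792 958 ± 11.2 and 1110 ± 92.9 CPM (SD, n = 3). The part of the share of dividing cells in the fall of the centromere and kinetochore genes was not tested.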

How the data were processed

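Poly-A RNA of 12 samples was sequenced from both ends. The authors pseudoaligned reads to the Ensembl GRCh38 transcriptome with kallisto 0.45.0 and added transcripts up to genes, and the deposited values are estimated counts per gene, whole numbers without normalization. Second strands were made with a directional kit, and the strand setting of the counting is not given in the sources used here. The labels and the methods of the study disagree on read length, instrument and the medium of A549, and the study's text in places gives the p53 status of the lines the other way round.

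Samples were grouped by the labels. In R 4.3.3, genes passing filterByExpr (minimum count 10, minimum total 15) were scaled by TMM and tested with edgeR 4.0.16 (robust quasi-likelihood), each line alone, or all 12 samples for the difference between responses and the untreated lines. P-values were adjusted by Benjamini-Hochberg over all tested genes. A call required an adjusted p below 0.05 and, except for the difference, a log2 fold change above 1 in size. Standard errors are the log2 fold change over the square root of F. Alternatives were DESeq2 1.42.0, limma 3.58.1 trend (prior count 2), RLE factors, library size only, no filter, no fold threshold, a replicate block, a loess GC correction (span 0.5), both together, all 12 samples in one fit, and leaving out samples. The procedure was also run on simulated counts, with changes placed only in well-counted genes and with less spread than was fitted here. That run therefore does not cover genes with few counts. Counting intervals are exact, at 95% (scipy 1.17.1). Gene positions and lengths came from GENCODE for GRCh38.

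All 10 genes, and of the role lists those called in a response and the 2 others with the smallest p in each line, are named with values. The 5 genes most like the 10 are those with the highest Pearson's r. CENPB and CENPQ of the lists were not analysed here. 1 further listed gene is in the counts but is not reported here by name or drawn. The genes and lists were chosen with earlier results of these data known.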

Additional observations from a re-analysis of the deposited data

Results flagged for a closer look

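The response to RG7112 differed between A549 and H1792, by the test of the difference itself over all 12 samples, in 8 of the 9 tested centromere and kinetochore genes. The differences (log2 scale, A549 response less H1792 response) were -3.41 for CENPA, -4.95 for HJURP, -4.64 for CENPU, -3.57 for ZWINT, -2.85 for KNL1, -2.78 for NDC80, -7.14 for NUF2 and -2.37 for CENPF. The fold changes of these 8 genes in A549 rest on 1 to 193 summed counts in the RG7112 libraries, fewest in NUF2 (1) and CENPU (2) and most in ZWINT (193). The sign of the difference was negative for all 8 genes under every alternative.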

How the results depend on the processing

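The 9 log2 fold changes in A549 and the 9 differences between the lines kept their sign under every alternative. In H1792, without replicate 3 of both treatments 0 genes of the whole table were called by edgeR (3215 of 10225 had an unadjusted p under 0.05), against 1450 with all libraries. Depth limits NUF2, CENPU, CENPF and KNL1 most, with at most 7 summed counts in A549 RG7112.

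Counts for H1792 were as follows. Over all genes 3384 were called with no fold threshold and 519 with the replicate block and GC correction together. Of the 9 genes, 1 was called higher with library size only and 1 lower with the GC correction. Of the other listed genes, 5 were called lower with no fold threshold, 1 with the GC correction and 1 with all 12 samples in one fit. Higher calls among them went from 2 to 1 with no filter, and to 0 with the block, the GC correction, both together, and all 12 samples in one fit. For the difference between responses, the block with GC correction gave 1668 calls over all genes (2539 before), 5 of the 9 genes lower and 5 other listed genes lower (11 before). The 1 higher call among other listed genes, CENPT, became 0 with library size only, no filter, the block, the GC correction, and both together. For the untreated lines, 1 of the 9 genes was called higher with no fold threshold (ZWINT), and 1 (HJURP) with library size only, with DESeq2 and with limma-trend. Other listed genes called lower were 7 with no fold threshold, and those called higher 2 with library size only and 0 with the block and GC correction.

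Leaving out libraries (singly, or replicate 3 throughout) gave 310 to 654 calls over all genes in A549 (665 before), 3 to 6 of the 9 genes lower and 3 to 7 other listed genes lower. In H1792 it gave 0 to 1642 calls over all genes, 0 to 1 of the 9 genes higher, and 0 to 1 other listed genes lower and 0 to 3 higher. For the difference it gave 1584 to 2978 calls over all genes, 6 to 8 of the 9 genes lower, and 7 to 14 other listed genes lower and 0 to 1 higher. For the untreated lines it gave 0 to 1 of the 9 genes higher, and 3 to 5 other listed genes lower and 1 to 2 higher.

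Signs turned only in uncalled values. In H1792 these were, with library size only, CENPA (0.15) and DSN1 (0.099), and without DMSO replicate 1 or RG7112 replicate 3, DSN1 (0.054 and 0.038, within a range of -0.47 to 0.054 over the libraries left out). With the GC correction, alone and then with the block, they were NDC80 (-0.015 and -0.017), KNL1 (-0.21 and -0.18) and CENPU (-0.20 and -0.21). Between untreated lines NDC80 turned to 0.15, NUF2 to 0.025 and CENPU to 0.25 with library size only, and CENPU to 0.049 with no filter. With libraries left out NDC80 ranged from -0.43 to 0.20, NUF2 from -0.56 to 0.13 and CENPU from -0.19 to 0.16. Library size only moved the median of all genes to 0.27 in H1792, -0.37 for the difference and 0.35 between untreated lines, and the higher share of calls to 86.1% (70.3% before), 23% (47.7%) and 70.4% (58.3%). The block with GC correction moved it to 56.6% in H1792. The cause of these shifts was not tested.

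To look for pairing, the mean of its group was subtracted from each gene's log2 CPM in each library. These deviations were then correlated over genes between the DMSO and RG7112 libraries of the same number. Pearson's r was 0.145, 0.0668 and 0.293 in A549 and -0.0386, -0.0182 and -0.000216 in H1792. Since not every pair was over 0.1, the samples were not treated as paired. In A549 the 3 values were all positive, and replicate 3 of both treatments deviated together (at -0.140 to -0.232 with the other numbers). With the replicate block DSN1 was gained in A549 and in the difference, CENPH (edgeR adjusted p = 0.0504), ZWILCH (0.0578) and KNTC1 (0.0637) were lost in A549, which left 6 other listed genes lower, KNL1 and CENPF were lost in the difference, and SPDL1 was lost in H1792. Calls over all genes with the block were 612 in A549, 995 in H1792 and 2357 for the difference.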

Other observations

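Of the listed centromere and kinetochore genes, 8 beside SPC25 had too few counts to be tested in A549. They are named here after their values were seen. SKA3, of the SKA complex that follows microtubule ends, had 71 summed counts with DMSO and 9 with RG7112 in A549, and 137 and 197 in H1792. OIP5, a MIS18 partner, had 25 and 5 summed counts in A549 and 30 and 33 in H1792. CENPC, which bridges CENP-A chromatin and the MIS12 complex, had 20 and 3 in A549 and 17 and 39 in H1792, and ITGB3BP had 16 and 2 in A549 and 21 and 46 in H1792. SKA1 had 4 and 0 summed counts in A549 and 6 and 18 in H1792. ZW10, of the RZZ complex, had 1 summed count with DMSO and 30 with RG7112 in A549, the latter all in replicate 1, and 0 and 64 in H1792, of which 62 in replicate 3. CENPE, a kinesin of the corona, had at most 14 summed counts in a group, and MIS18A had none. These are counts without scaling for library size, and none of these genes was tested in A549. In H1792, SKA3, OIP5, CENPC and ITGB3BP were tested and not called. Their log2 fold changes there were -0.13, -0.31, 0.59 and 0.59 (edgeR adjusted p = 0.886, 0.727, 0.446 and 0.457). The same genes were not called in the difference between responses or between untreated lines.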
